A study of Mus musculus with 5 samples.

Results

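Dopaminergic identity transcription factors are the DNA-binding proteins that specify midbrain dopamine neurons in the embryo and keep their gene programme running in the adult. The genes chosen by name for this role were Nr4a2, Pitx3, En1, En2, Lmx1a, Lmx1b, Foxa1, Foxa2, Otx2 and Sox6. All 10 of 10 were found among the 53700 gene IDs of the count table, and all 10 had at least 10 counts in at least 2 libraries and received an adjusted p-value.

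The RNA came from midbrains of C57BL/6 mice aged 4 months, all of which carried the L10a transgene and received AAV:THCre. Cre switches on a ribosomal protein L10a fused to EGFP, and BAC-TRAP pulls down the tagged ribosomes with their mRNA, so that the libraries sample messages under translation. Esrrg encodes the orphan nuclear receptor ERRγ. The group with intact Esrrg (L10a;Esrrg WT) had 3 libraries, replicates 2, 3 and 4, and the group with floxed Esrrg, in which the virus deletes exon 2 (L10a;Esrrg Flox), had 2, replicates 2 and 4. Each library was a pool of animals taken 1 month after injection. The Cre is driven by a tyrosine hydroxylase promoter, so any cell in which the virus used that promoter could lose Esrrg and carry the tag. The question the comparison addresses is whether the messages that define dopaminergic identity differ after Esrrg is lost.

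Foxa1 and Foxa2 are forkhead pioneer factors that open chromatin in floor plate progenitors, and Lmx1a, Lmx1b and Otx2 act with them to fix the ventral midbrain fate. Nr4a2 (Nurr1), an orphan nuclear receptor, and Pitx3, a homeodomain protein, then switch on the genes for dopamine synthesis, storage and uptake in neurons that have left the cell cycle. En1 and En2 are engrailed homeodomain proteins needed for the survival of these neurons, and in the adult Sox6 marks mainly ventral neurons of the substantia nigra whereas Otx2 marks mainly neurons of the ventral tegmental area.

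The libraries held 20635855 to 23105058 assigned counts, and a count of 0 allows a level of up to 0.130 to 0.145 CPM, which covers counting error only. Nothing in the labels says how the pools within a group relate to each other, so p-values measure the spread between these libraries. Esrrg itself had 1763, 1643 and 1726 normalized counts (counts divided by the library's size factor) in the WT libraries 2, 3 and 4, and 1504 and 1170 in the Flox libraries 2 and 4. Both Flox libraries were below every WT library, but the gene-level fold change (log2 -0.35, SE 0.13, adjusted p = 0.0753 by DESeq2) counts all exons of the gene and does not measure the loss of exon 2. The dopaminergic markers were high in every library, with Th at 4166 to 5420 and Slc6a3, the dopamine transporter, at 2776 to 3270 normalized counts per kilobase of exon. Genes of other cells were also present, with the astrocyte gene Gfap at 4472 to 7762 and the GABA-synthesis gene Gad1 at 979 to 1288 normalized counts per kilobase.

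The identity factors spanned a wide range of levels. Per kilobase of merged exons, the WT mean was highest for En1, at 824 ± 122 normalized counts (SD, n = 3), and 1590 of 26766 genes with a count in WT and a known length stood above it. Nr4a2 followed at 243 ± 28.8, and En1 was 3.40 times higher. Pitx3 (168 ± 16.4), Foxa1 (157 ± 22.9) and En2 (150 ± 18.0) formed a group whose WT ranges overlapped from one neighbour to the next, so that their order was not resolved. Lmx1b (124 ± 5.17) was below En2 in 4 of 5 libraries, and the WT ranges of these genes all but touched, with the lowest En2 value at 129.3 and the highest Lmx1b value at 129.1.

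Lmx1a (82.8 ± 6.37) and Foxa2 (76.0 ± 20.2) overlapped in WT, and the place of these 2 genes was exchanged when the longest transcript replaced merged exons as the length. Otx2 (37.1 ± 10.2) and Sox6 (16.7 ± 3.83) were at the bottom in every library, and the order of the other ranks was the same with either length. Sox6 is spread over 14832 bases of merged exons and its longest transcript has 8668, so its level was 28.5 per kilobase on that second length. Compared with the level of Th, all 10 messages were rare. Even En1 was at 824 against 4731 ± 636 normalized counts per kilobase for Th.

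**Figure D1:**
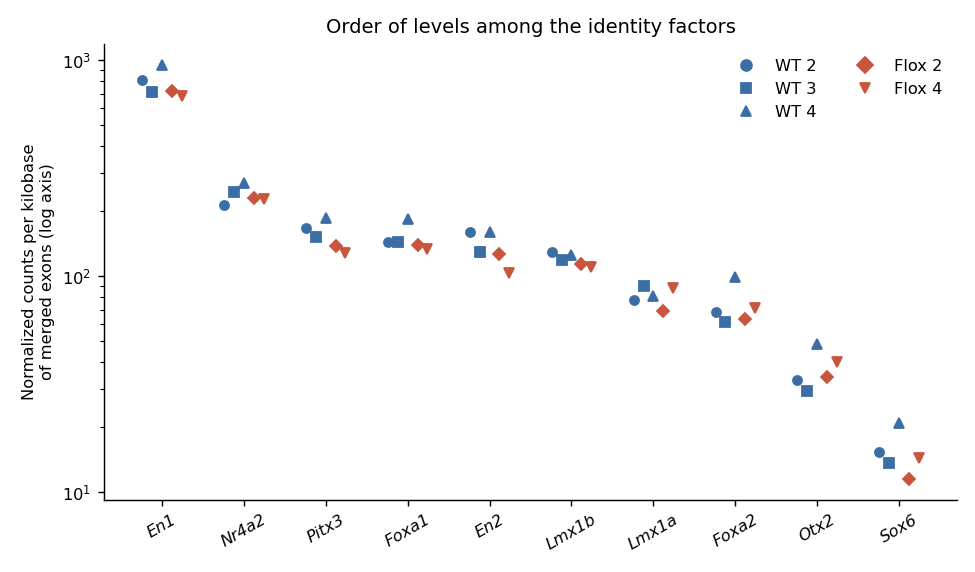
Level of each identity factor in the 3 WT libraries (blue) and the 2 Flox libraries (red), in normalized counts per kilobase of merged exons on a log axis, with genes ordered by their WT mean. En1 stands above Nr4a2 in all 5 libraries, and Otx2 and Sox6 are the lowest.

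None of the 10 identity factors passed the threshold of an adjusted p under 0.05 in Esrrg Flox against Esrrg WT (DESeq2 Wald test, adjusted over all genes). Over all 15724 genes tested, 8.25% passed, 4.2% higher and 4.05% lower in Flox. One of the 10, En2, was under 0.05 before adjustment, where 20.3% of all genes were. With edgeR's quasi-likelihood test 0 of 10 passed after adjustment, against 6.12% of all genes, and 4 of 10 (En2, En1, Pitx3 and Sox6) were under 0.05 before it, against 16% of all genes. All 10 fold changes were below 0, as were 50.9% of those of all genes tested, but Nr4a2, Lmx1a and Otx2 were above 0 with size factors taken from the effector genes. Their median was -0.19 on the log2 scale against -0.0063 for all genes (with the effector scaling, -0.09 against 0.089). The 10 values share the same libraries and size factors, so they are not independent of each other.

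For 4 of the 10 (Pitx3, En2, Lmx1b and Foxa1) both Flox libraries were below all 3 WT libraries, an arrangement found in 22.5% of all genes tested. For 0 of 10 were both Flox libraries above every WT library, which was the case in 19.9% of all genes. In these bulk libraries fewer tagged cells and less RNA per cell cannot be told apart.

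**Figure D2:**
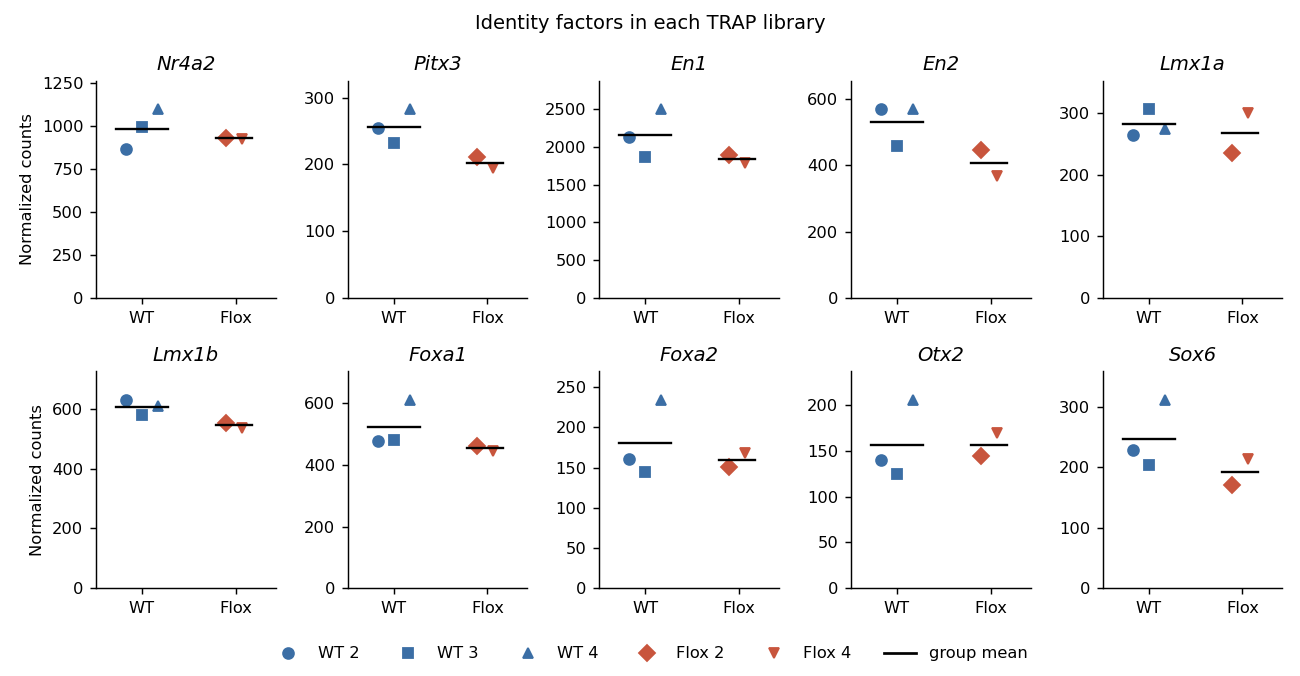
Normalized counts of each identity factor by library, with WT in blue, Flox in red and the group mean as a black line; each axis starts at 0. The library WT replicate 4 is the highest for 7 of the 10 genes, and the Flox points lie below all WT points for Pitx3, En2, Lmx1b and Foxa1.

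Nr4a2, the nuclear receptor that drives Th, Slc6a3 and Slc18a2, is the central member of the set. It had 865, 994 and 1098 normalized counts in WT libraries 2, 3 and 4 and 932 and 928 in Flox libraries 2 and 4. Both Flox values lay inside the WT range. The log2 fold change was -0.08 (SE 0.14, adjusted p = 0.820), and its 95% interval ran from 0.782-fold to 1.14-fold.

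Pitx3, which cooperates with Nr4a2 and whose loss in mice removes mainly substantia nigra neurons, had 255, 232 and 282 normalized counts in WT and 210 and 195 in Flox. The groups did not overlap. The Flox mean was 203 ± 10.98 (SD, n = 2) against 257 ± 25.1 in WT (n = 3), a log2 fold change of -0.34 (SE 0.19, adjusted p = 0.317) with an interval of 0.607-fold to 1.03-fold. Pitx3 overlaps Elovl3 on the opposite strand by 10 exon bases, and libraries were not strand-specific, so reads there cannot be assigned. Elovl3 had only 20 to 58 counts per library.

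En1 had 2131, 1862 and 2497 normalized counts in WT and 1892 and 1783 in Flox. The Flox libraries were at the low end, and Flox replicate 2 was above WT replicate 3. The log2 fold change was -0.24 (SE 0.14, adjusted p = 0.339), with an interval of 0.705-fold to 1.02-fold, and it was -0.12 without WT replicate 4. En2, its paralog, had 568, 458 and 568 in WT and 447 and 367 in Flox. En2 had the largest fold change of the set, a log2 of -0.38 (SE 0.17, unadjusted p = 0.0235, adjusted p = 0.157), and its interval of 0.608-fold to 0.965-fold did not hold 1. Its adjusted p over the alternative settings ran from 0.0889 to 0.933, the highest without Flox replicate 4, where the log2 fold change was -0.25.

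Lmx1a and Lmx1b are LIM-homeodomain factors that remain on in adult dopamine neurons. Lmx1a had 264, 306 and 274 normalized counts in WT and 234 and 300 in Flox. The Flox libraries lay on either side of WT replicates 2 and 4, and without Flox replicate 2 the log2 difference turned from -0.07 to 0.094. Lmx1b had 630, 580 and 609 in WT and 553 and 537 in Flox. These were the tightest values of the set, with a coefficient of variation of 4.16% in WT against 4.08% from counting alone. Its groups did not overlap, but the log2 fold change was only -0.15 (SE 0.14, adjusted p = 0.602; interval 0.748-fold to 1.08-fold).

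Foxa1 had 476, 480 and 610 normalized counts in WT and 462 and 443 in Flox, so the Flox libraries were just below WT replicates 2 and 3 and far below replicate 4. The log2 fold change was -0.21 (SE 0.16, adjusted p = 0.547; interval 0.693-fold to 1.08-fold), and it was -0.08 without WT replicate 4. Foxa2 had 161, 145 and 234 in WT and 151 and 168 in Flox, with a log2 fold change of -0.18 (SE 0.25, adjusted p = 0.788; interval 0.625-fold to 1.25-fold). One library set the direction for Foxa2, since without WT replicate 4 the value was 0.056.

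Otx2 and Sox6 mark mainly different groups of adult dopamine neurons. Otx2 had 140, 124 and 206 normalized counts in WT and 144 and 169 in Flox, and the Flox mean (157 ± 17.6, n = 2) equalled the WT mean (157 ± 43.1, n = 3) to 3 digits. Its interval, 0.696-fold to 1.43-fold, was the widest on the log2 scale, and without WT replicate 4 the log2 difference was 0.24. Otx2 shares 154 exon bases with the antisense transcript Otx2os1, which had 2 to 10 counts per library.

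Sox6 had 228, 203 and 311 normalized counts in WT and 171 and 214 in Flox. WT replicate 4 was the highest and Flox replicate 2 the lowest, and Flox replicate 4 lay between WT replicates 2 and 3. The log2 fold change was -0.36 (SE 0.23, adjusted p = 0.410; interval 0.565-fold to 1.07-fold), and without WT replicate 4 it was -0.17. The antisense transcript Sox6os, which lies across the gene without sharing exon bases, had 1, 2 and 5 counts in WT and 11 and 6 in Flox.

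**Figure D3:**
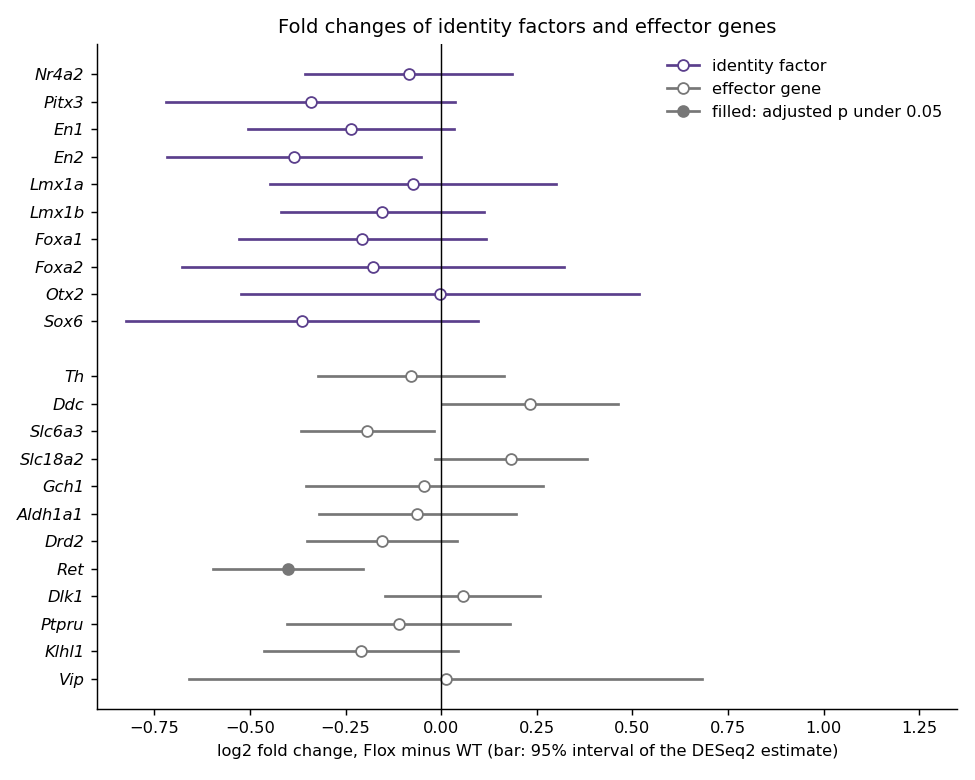
DESeq2 log2 fold change (Flox minus WT) with its 95% interval for the 10 identity factors (purple) and 12 dopaminergic effector genes (grey); filled points have an adjusted p under 0.05. All identity factor points lie left of 0 (Nr4a2, Lmx1a and Otx2 do not with size factors from the effector genes) and none is filled, and Ret is the only filled point.

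WT replicate 4 stood apart from the other libraries for these genes. It had the highest value of the 5 libraries for 7 of the 10, a summed level of 6690 normalized counts against 5383 and 5719 in the other WT libraries, and 5196 and 5104 in Flox. Its median deviation from the WT mean was 0.19 on the log2 scale, while WT replicates 2 and 3 were at -0.09 and -0.17 and Flox replicates 2 and 4 at -0.20 and -0.18. Without it the median fold change of the 10 genes was -0.11. The same library had the highest sum of the 12 dopaminergic effector genes, 69587 normalized counts (60537 to 65253 in the others). The same held for 7 genes of Sox6-type neurons (14569, with 11313 to 12833 in the others). It also held for 8 GABAergic genes (29840, with 24522 to 28789 in the others). WT replicate 4 had the highest sums of 3 glial lists as well, while every other list peaked elsewhere. For 6 oligodendrocyte precursor genes it had 12715 normalized counts (8334 to 9553 in the others), for 5 oligodendrocyte genes 133147 (90684 to 127014) and for 7 astrocyte genes 57962 (36945 to 51066), and the part of these in the member values was not tested. Sox6, known also from oligodendrocyte precursors, was highest in that library too.

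Markers of some other cells moved with the group. Of 8 microglial genes 6 rose in Flox and 0 fell, where 4.2% of all genes rose and 4.05% fell. Their summed level was 1207 to 2273 normalized counts in WT and 3890 to 8243 in Flox. C1qa, a complement gene of microglia, had 627, 743 and 377 in WT and 1598 and 4044 in Flox. Of 4 endothelial genes 3 rose, with sums of 76.9 to 167 in WT and 192 to 578 in Flox. Of 5 nuclear-retained RNAs 1, Neat1, rose with DESeq2 and 5 passed with edgeR, and all 5 had both Flox libraries above WT, with sums of 7635 to 12320 and 14816 to 25233. Of 7 choroid plexus genes 0 passed with DESeq2 (4 were under 0.05 before adjustment) and 5 with edgeR, and the sums were 652 to 1626 in WT and 2546 to 5078 in Flox.

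None of the genes in these 4 lists was at 0 in every library, and each of the 4 sums was lowest in WT replicate 4 and highest in Flox replicate 4. Without WT replicate 2 only 1 microglial, 1 endothelial and 1 nuclear gene (Neat1) passed. Without WT replicate 4 the counts were 3 microglial genes, 0 endothelial genes and 1 nuclear gene, again Neat1. Leaving out Flox replicate 4 leaves 1 Flox library, so whether these genes would pass cannot be judged there. The log2 fold change of Neat1 was then 0.73, the lowest of its 11 alternative values. Among the identity factors, the median log2 fold change without Flox replicate 4 was -0.23, close to the -0.19 with all libraries, and the part of these other cells in the lower values was not tested.

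Some identity factors are known from neighbouring cell types, and the markers of those cells were compared with them library by library. Otx2 is also made by the choroid plexus. Ttr, the main message of that tissue, had 989, 835 and 69.2 normalized counts in WT and 1892 and 4282 in Flox, so it was lowest in WT replicate 4, where Otx2 was highest. Lmx1b, En1 and En2 are also made by serotonergic neurons. The 4 serotonergic genes summed to 4416, 2257 and 2637 in WT and 4172 and 1342 in Flox, with Tph2 between 866 and 2740. Lmx1b spanned a narrower range, 537 to 630. Flox replicate 2 had less Lmx1b than WT replicate 3 (553 against 580), although its serotonergic sum was higher. Within each group Lmx1b ranked the libraries in the order of these sums. The dopaminergic gene Slc6a3 did so too, with 11300, 10836 and 11073 in WT and 9775 and 9593 in Flox. En1 and En2 were also lower in Flox replicate 4 than in Flox replicate 2, whereas in WT En1 was highest in replicate 4. The part of choroid plexus or serotonergic RNA in these factors was not tested. No serotonergic gene passed, either before adjustment or with edgeR. Of the 8 GABAergic genes 1 (Gad2, log2 fold change -0.35, adjusted p = 0.0302) fell and 0 rose, where 4.05% of all genes fell and 4.2% rose. With edgeR 2 of the 8 passed, against 6.12% of all genes. Before adjustment 3 were under 0.05 with DESeq2, against 20.3% of all genes. Fold changes were below 0 for 7 of the 8, as for 50.9% of all genes. For 3 both Flox libraries were below all WT libraries, as for 22.5% of all genes. The sums were 28044 to 29840 in WT and 24522 to 25128 in Flox. The Gad2 call was lost when WT replicate 2, 3 or 4 or Flox replicate 4 was left out, with adjusted p between 0.0814 and 0.663. No gene of these 2 neuronal lists was at 0.

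Of 6 glutamatergic genes 0 passed with DESeq2 and 1 with edgeR (1 was under 0.05 before adjustment), with sums of 6815 to 8773 in WT and 7047 to 7505 in Flox. Of 5 cholinergic genes 1, Slc5a7, fell (163, 86.6 and 70.1 against 59.6 and 32.8 normalized counts), where 4.05% of all genes fell. The sums of that list were 207 to 468 and 400 to 442. Slc5a7 was past the threshold in 3 of 11 alternative settings. It passed with none of the WT libraries left out and did not pass without Flox replicate 4. Of 5 cerebellar genes 0 passed with either tool, with Atoh1 at 0 counts in every library and sums of 263 to 1209 and 903 to 1166. Of the glial lists above, the oligodendrocyte and astrocyte genes had 0 past the threshold with either tool and 0 under 0.05 before adjustment, the precursor list had 0 with DESeq2 (2 before adjustment) and 1 with edgeR, and no gene was at 0.

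**Figure D4:**
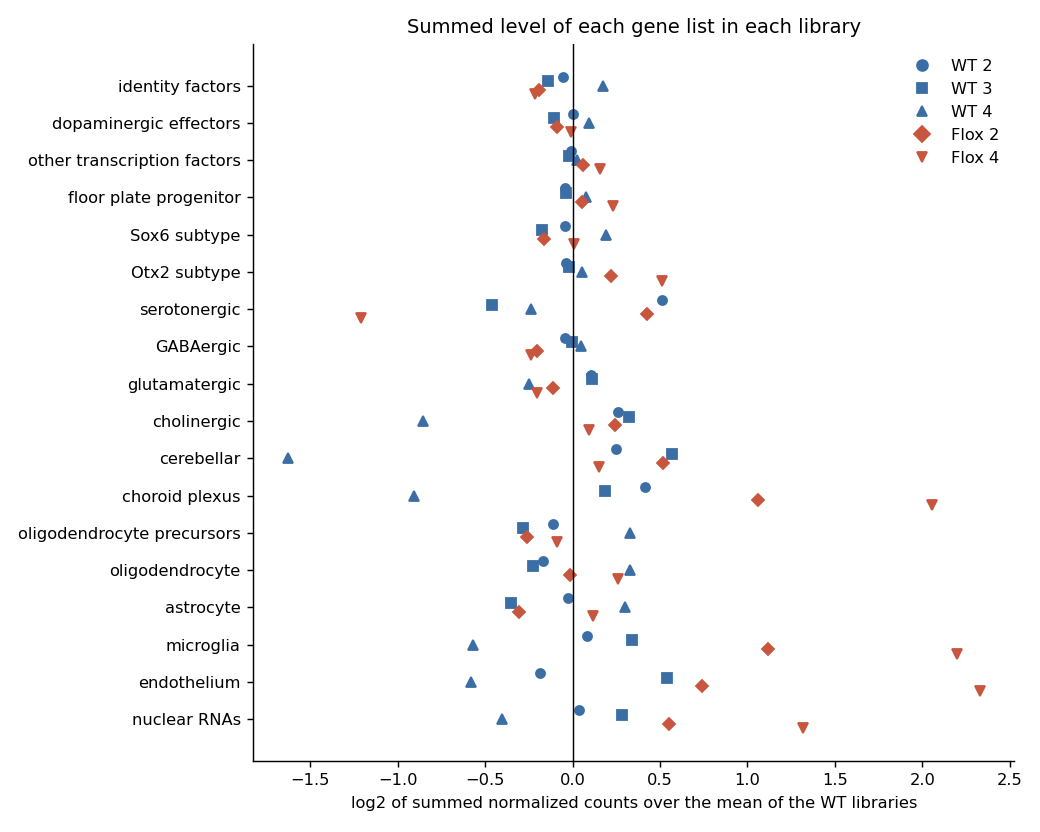
Summed normalized counts of each gene list in each library, as log2 over the mean of the 3 WT libraries, with WT in blue and Flox in red. The microglial, endothelial, choroid plexus and nuclear RNA lists are highest in Flox replicate 4 and lowest in WT replicate 4, while the identity factors spread over a much narrower range.

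The effector genes that the identity factors control were read in the same fit. Of 12 effector genes 1 fell and 0 rose, where 4.05% of all genes fell and 4.2% rose, and the median log2 fold change was -0.07. A count of 1 among 12 is near the share of all genes and is no result about the effector list. The gene that fell was Ret, the signalling receptor for GDNF and a known target of Nr4a2. Ret had 5699, 5484 and 6156 normalized counts in WT and 4440 and 4312 in Flox, and the groups were far apart. Its log2 fold change was -0.40 (SE 0.10, adjusted p = 0.0029), and the call was lost without WT replicate 2 (adjusted p = 0.0806). It was also lost with size factors taken from the effector genes (adjusted p = 0.0962). Ret is itself 1 of those genes and helps to set that scaling. Without Flox replicate 4, which leaves 1 Flox library, the log2 fold change of Ret was -0.38.

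The 4 genes of dopamine synthesis, storage and uptake did not pass. Th, the rate-limiting enzyme, had 10890, 9849 and 12813 normalized counts in WT and 10224 and 10945 in Flox. Slc6a3 had 11300, 10836 and 11073 in WT and 9775 and 9593 in Flox, below all WT libraries (adjusted p = 0.177). Ddc, which makes dopamine from L-DOPA, was on the other side, with 7873, 6964 and 8463 in WT and 8526 and 9711 in Flox (adjusted p = 0.242). Slc18a2, the vesicular monoamine transporter, was also above all WT libraries (4917, 4321 and 4573 against 5198 and 5245; adjusted p = 0.308).

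Each identity factor was also set against the geometric mean of Th, Ddc, Slc6a3 and Slc18a2 in its own library, a ratio that does not depend on the size factor. All 10 ratios were lower in Flox on average, with a median difference of -0.21 on the log2 scale. For 6 of 10 (Pitx3, En1, En2, Lmx1b, Foxa1 and Sox6) both Flox libraries were below all WT libraries, which was so for 21.9% of all genes set against the same reference. The 10 ratios share 1 denominator per library. They were not tested. For En2 the log2 ratio was -3.87, -4.04 and -3.92 in WT and -4.19 and -4.54 in Flox, and for Nr4a2 it was -3.26, -2.92 and -2.97 in WT and -3.13 and -3.20 in Flox, where the groups overlapped.

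Paralogs and partners were then compared within each library, per kilobase of merged exons, as a description without a test. En1 exceeded En2 in all 5 libraries, with a mean log2 ratio of 2.45 ± 0.11 in WT (SD, n = 3), or 5.48-fold, and 2.61 ± 0.14 in Flox (n = 2). Lmx1b exceeded Lmx1a, at 0.59 ± 0.17 in WT and 0.52 ± 0.28 in Flox, and Foxa1 exceeded Foxa2, at 1.07 ± 0.18 in WT and 1.02 ± 0.15 in Flox. In these 3 pairs the groups overlapped.

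The ratio of the 2 subtype factors was read in the same way, although neither gene passed the threshold. The log2 ratio of Sox6 to Otx2 was -1.11, -1.11 and -1.21 in WT and -1.57 and -1.47 in Flox. Both Flox libraries were lower, with a difference of -0.38, and leaving out any 1 library left it between -0.42 and -0.33. The SDs of the log2 ratio were 0.06 in each group. Counting alone gives coefficients of variation in WT of 6.37% for Sox6 and 7.998% for Otx2. The SDs are smaller than the spread that this counting error gives the ratio, so they are no measure of how far the groups lie apart. The choroid plexus list was higher in Flox (2546 to 5078 against 652 to 1626 normalized counts). For 3 of 6 oligodendrocyte precursor genes both Flox libraries were below WT, an arrangement found in 22.5% of all genes. The sums of the precursor list overlapped, at 8334 to 12715 in WT and 8451 to 9553 in Flox. The part of either list in this ratio was not tested. The ratio of Nr4a2 to Pitx3 was 0.35, 0.69 and 0.55 in WT and 0.74 and 0.84 in Flox, so that both Flox libraries were higher. The difference was 0.26 and lay between 0.17 and 0.34 without any 1 library. For both ratios, the share of other gene pairs that separate in this way was not computed.

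**Figure D5:**
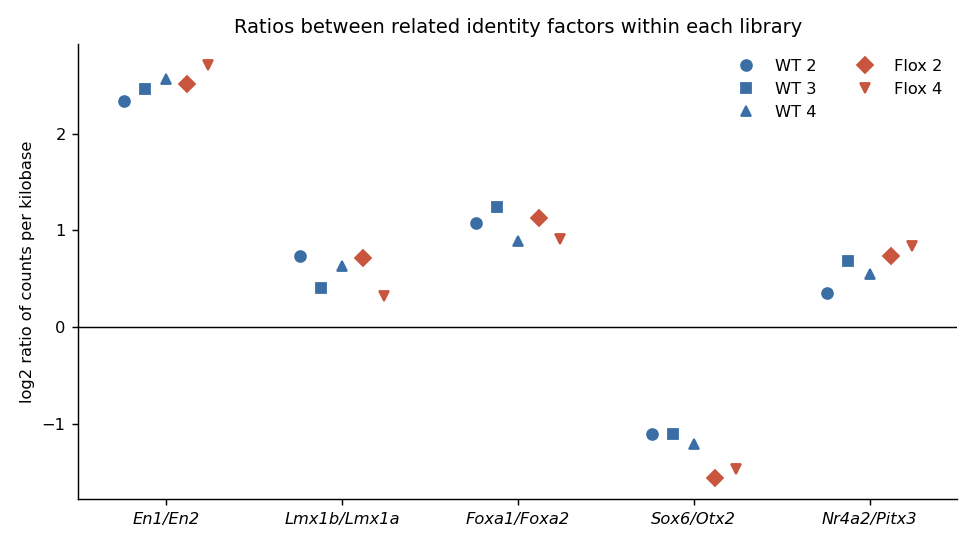
Log2 ratio of normalized counts per kilobase between related identity factors in each library, with WT in blue and Flox in red and 0 marking equal levels. The Sox6/Otx2 points of both Flox libraries lie below all WT points and the Nr4a2/Pitx3 points lie above them, while the other 3 ratios overlap.

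Genes that mark the Sox6 and Otx2 subtypes were examined next. Of 7 genes of Sox6-type neurons 1 fell and 0 rose, with a median log2 fold change of -0.06. Of 10 genes of Otx2-type or dorsal neurons 2 rose and 0 fell, with a median of 0.19. Over all genes 4.05% fell and 4.2% rose, and counts of 1 and 2 in lists this short are no result about either list. Kcnj6, the GIRK2 potassium channel, had 71.6, 86.6 and 88.4 normalized counts in WT and 44.2 and 38.8 in Flox (log2 fold change -0.99, SE 0.33, adjusted p = 0.0419). It was past the threshold in only 3 of 11 alternative settings, and leaving out any 1 library ended the call, with adjusted p of 0.178 without WT replicate 2, 0.264 without WT replicate 3 and 0.139 without Flox replicate 2, and none assigned without WT replicate 4 or Flox replicate 4. Aldh1a1, the most abundant gene of the Sox6 list and a marker of the ventral tier, had 10894, 9813 and 13072 in WT and 10175 and 11393 in Flox, and the groups overlapped.

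Calb2, the calcium-binding protein calretinin, had 12574, 11806 and 12971 normalized counts in WT and 16451 and 20703 in Flox. The groups were well apart, with a log2 fold change of 0.58 (SE 0.12, adjusted p = 0.00017), and the call was lost without Flox replicate 4 (adjusted p = 0.0984). Adcyap1, which encodes the neuropeptide PACAP, had 2437, 2624 and 2565 in WT and 3136 and 3712 in Flox (log2 fold change 0.43, SE 0.11, adjusted p = 0.0055). That call was lost without WT replicate 2 (adjusted p = 0.135) and without Flox replicate 4 (adjusted p = 0.523). Slc17a6, the vesicular glutamate transporter of ventral tegmental neurons, had 3981, 4165 and 4301 in WT and 3526 and 3991 in Flox (adjusted p = 0.498). Calb2 and Adcyap1 are also made by other midbrain neurons, which these libraries do not separate. Both were highest in Flox replicate 4, the library with the highest microglial, endothelial, choroid plexus and nuclear RNA sums, and the part of those in the rise was not tested.

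Among 23 other transcription factors and cofactors of these neurons, such as the Nr4a2 partners Rxra, Rxrb and Rxrg and the early B-cell factors, 1 rose and 0 fell. Over all genes 4.2% rose and 4.05% fell, so this count is near the share of all genes and is no result about the list. The median log2 fold change of the list was 0.02. Myt1l, a zinc finger factor that keeps neuronal identity by repressing other programmes, had 4084, 4237 and 3466 normalized counts in WT and 4825 and 5245 in Flox (log2 fold change 0.36, SE 0.12, adjusted p = 0.0366). It was past the threshold in 5 of 11 alternative settings. The adjusted p was 0.167, 0.0597 and 0.0931 without WT replicate 2, 3 and 4, and 0.644 without Flox replicate 4. Nr4a1 and Nr4a3, the paralogs of Nr4a2, had overlapping groups, at 208 to 328 in WT and 264 to 373 in Flox for Nr4a1 and 96.1 to 144 and 71.6 to 130 for Nr4a3.

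The pattern of each identity factor over the 5 libraries was compared with those of 49 effector, subtype and transcription factor genes, as the root mean square difference of log2 normalized counts after each gene was centred on its own mean. Lmx1b was most like Slc6a3, at a difference of 0.028 where Lmx1b itself varied by 0.085. Pitx3 was most like Ret (0.053, against a variation of 0.19 for Pitx3 itself) and then Aldh1a7 (0.062). En2 was nearest to Aldh1a7 (0.092) and Ret (0.11), and Lmx1a to Grin2c (0.052). Foxa2 and Otx2 were both nearest to Zeb2 and then Aldh1a1, at 0.090 and 0.11 for Foxa2 and 0.074 and 0.12 for Otx2, and all of these were highest in WT replicate 4. En1 and Foxa1 were nearest to Rxrb (0.070 and 0.082). Nr4a2 had no close match, since its nearest gene, Slc17a6, was at 0.10 and Nr4a2 itself varied by 0.12. Sox6 was also loosely matched, with Aldh1a7 at 0.15. These are likenesses over 5 libraries that share group, depth and makeup.

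Promoter sequences were taken from RefSeq (GRCm38.p6), as windows of 250 bases before to 50 bases after each annotated start, and were searched on both strands for the Nr4a2 monomer site AAAGGTCA (the NBRE) and for the ERR response element TNAAGGTCA, 2 motifs that overlap wherever N is A. The table held windows for 9 of the 10 identity factors, 19 in all, and 32851 windows over all genes. The NBRE letters were in 1 of the 19 windows and in 1.51% of all windows, and the ERR element was in 0 of 19 and in 1.28% of all. The window that matched belongs to 1 of the 6 Sox6 starts. Of 13 windows of effector genes 1, at a Ddc start, held both motifs in 1 overlapping stretch. These 2 stretches are shown because they are the only ones in either list with the letters of the receptors' sites; capitals mark the match, and both are written 5′ to 3′ on the strand of the gene.
Sox6 (chr7:116031086-116031153, minus strand): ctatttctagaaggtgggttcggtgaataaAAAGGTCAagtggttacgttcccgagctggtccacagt
Ddc (chr11:11898179-11898247, minus strand): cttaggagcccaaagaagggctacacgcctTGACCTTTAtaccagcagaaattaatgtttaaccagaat

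The Sox6 match lay 76 to 69 bases before the start on the strand of the gene, and the Ddc match lay 73 to 65 bases before it and reads TAAAGGTCA on the opposite strand. A match of letters does not show a site in use. Sox6 had a log2 fold change of -0.36 and Ddc of 0.23, and neither passed the threshold. The Nr4a2 window had 81.7% G and C, the highest of the 19, where the median of all windows was 52.7%, and the windows of Sox6 ranged from 36.7% to 63.3%.

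The paralogs within the set could be told apart by their reads. Of all stretches of 50 bases in the annotated transcripts of En1, En2, Foxa1, Foxa2, Nr4a2, Pitx3 and Sox6, 0 occurred in a transcript of another gene, and 0.0598% did for Lmx1a, 0.390% for Lmx1b and 2.75% for Otx2. For Otx2 the other genes were Otx2os1 and Gm49154, which overlap it.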

How the data were processed

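BAC-TRAP RNA from 3 Esrrg WT and 2 Esrrg Flox midbrain pools was sequenced from poly(A)-selected, non-strand-specific libraries. Per the labels, the authors used Trim Galore 0.6.6, STAR 2.7.9a and HTSeq 0.11.3 with build GRCm39, whereas the study's methods name an earlier build and other versions, so no gene coordinates are given; the 2 promoter stretches have those of the RefSeq table (GRCm38.p6). The deposited values are raw counts per gene; lines for unassigned reads were left out (reads overlapping more than 1 gene were 5.62% to 5.78%). Names (97.0% of IDs), exon lengths and overlaps came from GENCODE release M21.

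All 29407 genes with a count were fitted with DESeq2 1.42.0 (R 4.3.3; Wald test, two-sided, Benjamini-Hochberg, independent filtering at 0.05), the tool of the study, and the fit was tested on simulated data. A gene passed on its adjusted p alone, without the fold change minimum that the study also set. Alternatives used edgeR 4.0.16, other scalings and filters, a replicate block and each library left out. No libraries agreed within counting noise (chi-square per degree of freedom 4.25 to 45.8). The rule for named genes took all 10 factors, Esrrg, and from each list up to 4 genes past the threshold and the most abundant one; lists of other cell types are given mostly as counts and sums, and further list genes were named after their values were seen. A few genes that the rule would name are not reported here. The factors and lists were chosen with earlier results of these data known.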

Additional observations from a re-analysis of the deposited data

How the results depend on the processing

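None of the 10 identity factors passed the threshold in any of the 11 alternatives, and their median log2 fold change stayed below 0, at -0.09 with size factors from the effector genes and from -0.29 (without WT replicate 3) to -0.11 (without WT replicate 4) without 1 library. The median of all genes moved from -0.0063 to 0.089 with the effector scaling, so changes there are relative to that shift. Of 110 alternative values of single factors 8 turned above 0. With the effector scaling these were Nr4a2 (0.0075), Lmx1a (0.018) and Otx2 (0.10), with the filter on low counts Otx2 (0.0013), without WT replicate 4 Foxa2 (0.056) and Otx2 (0.24), and without Flox replicate 2 Lmx1a (0.094) and Otx2 (0.11). Pitx3, En1, En2, Lmx1b, Foxa1 and Sox6 kept their direction in all 11. The ranges without 1 library were -0.17 to -0.0027 for Nr4a2, -0.33 to -0.12 for En1, -0.27 to 0.094 for Lmx1a, -0.31 to 0.056 for Foxa2 and -0.15 to 0.24 for Otx2. The count of all genes past the threshold was 1297, 476 with the replicate block, and 72 (without Flox replicate 4) to 1585 (without Flox replicate 2) without 1 library. The cause was not tested. The labels do not say that a replicate number marks a shared litter or day. The differences between numbers 2 and 4 in WT and in Flox had a correlation of 0.098 across 16178 genes, and 2 pairs cannot settle whether the numbers pair the libraries; the 4 serotonergic genes were higher in number 2 than in number 4 in both groups (4416 and 2637 in WT, 4172 and 1342 in Flox). With the block 0 of 10 factors passed. The ratio differences without 1 library, an alternative chosen after seeing the data, ran from 0.059 to 0.26 for En1/En2, from -0.27 to 0.13 for Lmx1b/Lmx1a and from -0.16 to 0.058 for Foxa1/Foxa2. With the longest transcript as length the WT level moved by more than 1 SD for Nr4a2 (276), Pitx3 (186), Otx2 (60.4) and Sox6 (28.5 per kilobase). With 2 Flox libraries the SE of the log2 fold change ran from 0.14 (Lmx1b) to 0.27 (Otx2) among the 10 factors, which limits how small a difference could pass.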

Other observations

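Genes of the floor plate progenitors from which dopamine neurons arise, and of signals that act on them, were also measured. All 10 had a count in at least 1 library, but only 7 had an adjusted p-value, and 0 passed the threshold (0 of 10 also under 0.05 before adjustment with DESeq2, and 0 with edgeR). Their sums were 1120 to 1218 normalized counts in WT and 1196 to 1356 in Flox. Shh, which induces the floor plate, had 360, 392 and 352 normalized counts in WT and 364 and 478 in Flox. Msx1 (19.2 to 46.9), Neurog2 (49.0 to 79.7), Wnt1 (3.84 to 6.11) and Fgf8, with 1 count in 1 of 5 libraries, were low in all libraries.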
